A study of Mus musculus with 24 samples.

Results

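RNA levels of 10 genes of MHC class I antigen presentation were followed in 24 samples of MC38 cells, a mouse colorectal cancer line from C57BL/6. The 10 genes were chosen by name, as the classical and non-classical heavy chains H2-K1, H2-D1 and H2-T23, the light chain B2m, the peptide transporter Tap1 and Tap2, the peptide editors Tapbp and Tapbpl, the transactivator Nlrc5 and the peptidase Erap1. All 10 were found among the 52636 gene identifiers of the table, and none was at 0 in any sample. There were 8 lines with 3 samples each. MC38-WT was unmodified and grown without puromycin, at passages 7 to 9. MC38-MOCK#1 carried an empty CRISPR-Cas9 construct and was the control of MC38-CMAS KO (knockout of Cmas, the enzyme that activates sialic acid), MC38-COSMC KO (knockout of C1galt1c1, which encodes Cosmc, the chaperone of the enzyme that extends O-glycans) and MC38-DKO (both knockouts), and these lines were at passages 4 to 6. MC38-MOCK#2 carried a control CRISPR-dCas-VPR construct, a system that activates a gene's own promoter, and was the control of the lines labelled FUT4 and FUT9, all at passages 6 to 8. All lines but MC38-WT were kept in puromycin, and MC38-COSMC KO was a bulk population sorted by lectin binding. Per the methods of the study, lines at passages 4 to 6 were harvested from separate passages at separate times. Nothing says that the samples of a line came from separately derived cells, so p-values measure the spread between passages of 1 line.

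A class I molecule is a heavy chain bound to beta-2-microglobulin and a short peptide, and it shows CD8 T cells which proteins a cell makes. Peptides made by the proteasome are pumped into the endoplasmic reticulum by the TAP transporter, trimmed by ERAP1 and loaded with the help of tapasin or its relative TAPBPR. Most of these genes are known to be induced by interferons, and NLRC5 acts on the promoters of many of them without binding DNA itself, through factors bound at a conserved promoter module.

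Promoters of 7 of the 10 genes were in the RefSeq promoter table (GRCm38.p6), and those of H2-K1, H2-D1, B2m, Tap1 and H2-T23 are shown because these genes are held to share regulatory elements. Each sequence is the 250 bases before the RefSeq transcript start, from 5′ to 3′ on the strand of the gene. Capitals mark 4 short motifs searched on both strands, which were picked with the sequences in view: AANNGAAA (the type bound by interferon regulatory factors), GGG and CCC with NNNNN between them (the type bound by NF-kappaB), TGACG (the core of a CRE) and CCAAT.
H2-K1, chr17:34000334-34000583, minus strand: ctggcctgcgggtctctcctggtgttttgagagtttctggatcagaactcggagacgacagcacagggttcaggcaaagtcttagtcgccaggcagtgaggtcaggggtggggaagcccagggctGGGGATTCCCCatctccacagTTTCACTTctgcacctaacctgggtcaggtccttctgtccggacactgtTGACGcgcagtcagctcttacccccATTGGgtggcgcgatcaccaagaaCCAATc
H2-D1, chr17:35262844-35263093, plus strand: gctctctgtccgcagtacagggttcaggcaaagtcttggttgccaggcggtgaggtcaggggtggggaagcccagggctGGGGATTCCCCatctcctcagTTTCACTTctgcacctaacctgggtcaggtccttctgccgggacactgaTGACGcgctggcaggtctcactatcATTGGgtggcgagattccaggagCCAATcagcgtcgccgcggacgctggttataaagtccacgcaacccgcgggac
B2m, chr2:122147437-122147686, plus strand: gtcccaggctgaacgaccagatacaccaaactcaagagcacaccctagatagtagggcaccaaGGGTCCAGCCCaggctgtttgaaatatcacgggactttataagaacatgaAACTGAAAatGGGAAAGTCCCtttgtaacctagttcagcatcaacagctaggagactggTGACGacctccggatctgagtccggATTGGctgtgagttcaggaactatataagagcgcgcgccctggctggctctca
Tap1, chr17:34187306-34187555, plus strand: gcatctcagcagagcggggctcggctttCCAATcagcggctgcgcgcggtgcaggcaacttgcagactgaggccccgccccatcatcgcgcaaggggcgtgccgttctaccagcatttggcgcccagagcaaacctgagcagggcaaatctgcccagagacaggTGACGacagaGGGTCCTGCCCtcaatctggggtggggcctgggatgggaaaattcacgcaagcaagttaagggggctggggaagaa
H2-T23, chr17:36032702-36032951, minus strand: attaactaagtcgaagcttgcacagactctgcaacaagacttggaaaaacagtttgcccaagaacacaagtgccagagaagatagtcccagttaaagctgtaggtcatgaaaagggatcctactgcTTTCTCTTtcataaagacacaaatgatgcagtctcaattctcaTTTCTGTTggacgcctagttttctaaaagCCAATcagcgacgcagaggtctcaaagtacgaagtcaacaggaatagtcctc
H2-K1, H2-D1 and B2m held all 4 motifs, of which AANNGAAA had been shortened after a longer form missed B2m, so that this count follows from the choice. In these 3 genes TGACG was followed, 15 to 25 bases on, by the reverse complement of CCAAT, a spacing found in 0.381% of 32851 promoters. As the motifs were picked with these sequences in view, that share is no test of the match. The Tap1 window held 3 of the motifs, without that spacing and without AANNGAAA, and the H2-T23 window held AANNGAAA and CCAAT. Of the windows not shown, that of Tapbp held CCAAT alone and that of Erap1 none of the 4. Taken singly the motifs were common, in 21.3% (AANNGAAA), 12.2% (the NF-kappaB type), 17.8% (TGACG) and 33.8% (CCAAT) of promoters, and a match is a description of the letters only. The RefSeq start lay within 3 bases of the gene's 5′ end in the count table for H2-K1, B2m and Tap1, but 364 bases from it for H2-D1, 154 for H2-T23, 285 for Erap1 and 3579 for Tapbp.

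The deposited values are read counts that the authors scaled per library and rounded, called normalized counts here, with totals of 10911849 to 12263307 per sample from an estimated 6760000 to 16230000 reads. Cmas was at 93 to 142 in MC38-CMAS KO and MC38-DKO and at 272 or more elsewhere. C1galt1c1 was at 124 to 163 in MC38-COSMC KO and at 220 to 251 in MC38-MOCK#1, but in MC38-DKO, at 166 to 206, it was no lower than in MC38-CMAS KO, at 152 to 215. Fut4 was at 0 or 1 in every sample, including the line labelled FUT4, whereas Fut9 was at 171 to 209 in that line, at 641 to 955 in MC38-FUT9 and at 7 or less elsewhere. The RNA thus goes against the label of the line labelled FUT4. Samples 1 and 3 of that line, both at passage 7, were the most alike of all replicate pairs, yet differed by more than counting noise, and were counted separately. Markers of leukocytes summed to at most 6 and those of endothelium to at most 19 in any sample. Of 8 markers of intestinal epithelium 7 stayed below 10 in every sample, and the other, Krt20, was at 263 to 468 in the line labelled FUT4, at 30 to 44 in MC38-CMAS KO and at 6 or less elsewhere. Of 6 mesenchymal markers, Vim was at 19787 to 33315, Thy1 at 0 in every sample and Acta2 at 25 to 53. Col1a1 was at 19 to 255, Col1a2 at 4 to 131 and Pdgfrb at 27 to 1100. Pdgfrb differed between lines, with 61 to 189 in MC38-MOCK#1 and 27 to 77 in MC38-DKO. It was at 440 to 520 in MC38-COSMC KO, 471 to 1100 in MC38-MOCK#2 and 604 to 990 in MC38-FUT9.

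**Figure D1:**
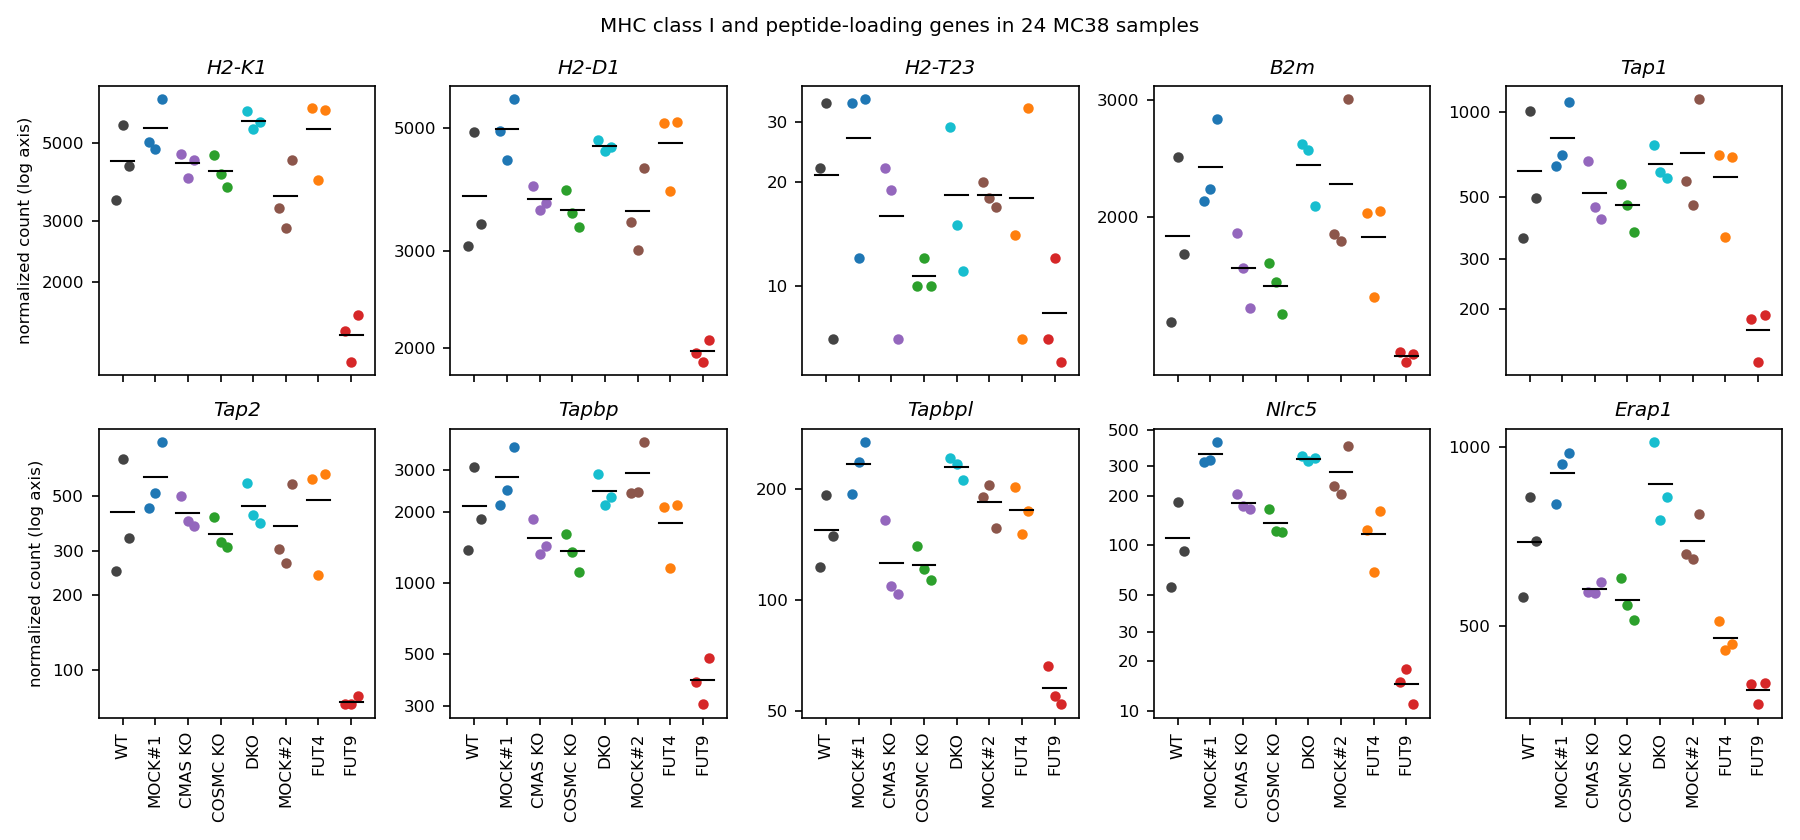
Normalized counts of the 10 genes (vertical log axes) in the 8 lines, with a point for each of the 3 samples and a bar at their mean; FUT4 stands for the line labelled FUT4. For 9 genes, all but H2-T23, the MC38-FUT9 samples lie below the 21 other samples, as for 5.51% of all genes tested.

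Per kilobase of gene length, B2m had the highest mean level over the 24 samples (2219 normalized counts per kilobase), followed by H2-K1 (1660), H2-D1 (1499) and Tapbp (583). Tap2 (105), Tap1 (103), Erap1 (88.5) and Tapbpl (68.3) were lower, and Nlrc5 (22.5) and H2-T23 (5.96) were lowest. In a test for any difference among the 8 lines (limma on log2 of the value plus 1, moderated F, Benjamini-Hochberg adjusted p below 0.05), 9 of the 10 genes passed, all but H2-T23 (adjusted p = 0.371), against 48.2% of all genes tested. All adjusted p-values below come from limma with the same adjustment over all genes tested, and fold changes are differences of log2(normalized count + 1) with their standard error.

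Nlrc5, the transactivator, varied most. Its normalized counts were 319, 327 and 420 in MC38-MOCK#1, 344, 321 and 337 in MC38-DKO, and 228, 205 and 397 in MC38-MOCK#2. They were 204, 172 and 167 in MC38-CMAS KO, 166, 122 and 121 in MC38-COSMC KO, and 56, 184 and 92 in MC38-WT. In the line labelled FUT4 they were 124, 69 and 161, and in MC38-FUT9 15, 18 and 11. Every MC38-FUT9 sample was thus below every other sample, and no sample of MC38-CMAS KO, MC38-COSMC KO or MC38-WT reached the lowest of MC38-MOCK#1 or MC38-DKO. Against MC38-MOCK#2, Nlrc5 fell by 4.11 ± 0.30 (SE, n = 3) on the log2 scale in MC38-FUT9 (limma, adjusted p = 0.000362), where 5.51% of all genes likewise had all MC38-FUT9 samples below the 21 others. Against MC38-MOCK#1 it fell by 1.83 ± 0.39 in MC38-WT (limma, adjusted p = 0.0413), by 1.38 ± 0.16 in MC38-COSMC KO (adjusted p = 0.00313) and by 0.96 ± 0.14 in MC38-CMAS KO (adjusted p = 0.0132). In MC38-DKO it differed by -0.08 ± 0.12 (limma, adjusted p = 0.915). In the line labelled FUT4 all samples were below those of MC38-MOCK#2, but the difference of -1.24 ± 0.36 did not pass (limma, adjusted p = 0.0614).

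H2-K1, a classical heavy chain (GRCm38 chr17:33996017-34000333), was at 1452, 1191 and 1620 normalized counts in MC38-FUT9 and at 3250, 2864 and 4471 in MC38-MOCK#2. It was at 5030, 4788 and 6656 in MC38-MOCK#1, at 6150, 5456 and 5716 in MC38-DKO, and at 6262, 3929 and 6217 in the line labelled FUT4. The MC38-FUT9 samples did not overlap with any others, and H2-K1 fell by 1.3 ± 0.18 on the log2 scale against MC38-MOCK#2 (limma, adjusted p = 0.00337). In MC38-WT it was at 3432, 5614 and 4286, in MC38-CMAS KO at 4652, 3971 and 4477, and in MC38-COSMC KO at 4622, 4086 and 3730. Both single knockouts lay below all MC38-MOCK#1 samples without passing the test (limma, -0.32 ± 0.13, adjusted p = 0.226, and -0.40 ± 0.13, adjusted p = 0.108).

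H2-D1, the other classical heavy chain, was at 1965, 1893 and 2070 in MC38-FUT9 and at 3385, 3010 and 4248 in MC38-MOCK#2. It fell by 0.83 ± 0.12 (limma, adjusted p = 0.00439), less in size than the value of H2-K1, although the difference between the genes was not tested. In MC38-MOCK#1 it was at 4954, 4383 and 5649, in MC38-DKO at 4763, 4551 and 4619, and in the line labelled FUT4 at 5109, 3852 and 5130. MC38-CMAS KO, at 3931, 3557 and 3671, and MC38-COSMC KO, at 3863, 3516 and 3318, lay below all samples of MC38-MOCK#1 and MC38-DKO, while MC38-WT, at 3064, 4922 and 3351, overlapped with both. H2-D1 and H2-K1 share 12.8% and 9.63% of their 50-base windows with other genes, among them H2-Q7 and each other. Reads that match several genes may thus affect their counts. Of the 10 genes, Tapbp (23.2%) and H2-T23 (14.5%) had the largest shares of such windows.

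H2-T23, a non-classical heavy chain that presents leader peptides of other class I chains, was hardly expressed, at 6 to 35 normalized counts. It was at 7, 12 and 6 in MC38-FUT9, at 20, 18 and 17 in MC38-MOCK#2, and at 34, 12 and 35 in MC38-MOCK#1. The difference between MC38-FUT9 and MC38-MOCK#2 was -1.10 ± 0.33 (limma, adjusted p = 0.0504), with no overlap between these lines, and no comparison of H2-T23 passed the test.

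B2m, the light chain (GRCm38 chr2:122147686-122153083, outside the MHC region), was at 1258, 1217 and 1249 in MC38-FUT9 and at 1889, 1847 and 3007 in MC38-MOCK#2. It fell by 0.82 ± 0.18 (limma, adjusted p = 0.0189), a call that was lost when any MC38-FUT9 sample was left out (adjusted p up to 0.0960). B2m was at 2120, 2206 and 2809 in MC38-MOCK#1, at 2578, 2521 and 2083 in MC38-DKO, and at 2034, 1519 and 2048 in the line labelled FUT4. It was at 1397, 2462 and 1764 in MC38-WT, at 1897, 1681 and 1462 in MC38-CMAS KO, and at 1710, 1601 and 1434 in MC38-COSMC KO. The lowest MC38-DKO sample thus exceeded the highest of either single knockout.

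Tap1 and Tap2, the subunits of the peptide transporter, are neighbours on chromosome 17. Tap1 was at 184, 130 and 190 in MC38-FUT9 and at 570, 468 and 1109 in MC38-MOCK#2, and it fell by 2.00 ± 0.32 (limma, adjusted p = 0.00564). Tap2 was at 73, 73 and 79 in MC38-FUT9 and at 305, 269 and 555 in MC38-MOCK#2, and it fell by 2.24 ± 0.26 (limma, adjusted p = 0.00165). Neither gene passed the test in any other pair of lines compared, where samples of the same line differed widely. Tap1 was at 358, 1003 and 495 in MC38-WT, at 642, 702 and 1087 in MC38-MOCK#1, and at 703, 361 and 691 in the line labelled FUT4. Tap2 was at 249, 700 and 338 in MC38-WT, at 446, 513 and 818 in MC38-MOCK#1, and at 584, 241 and 612 in the line labelled FUT4. The same sample of each of these lines was high, or low, for both genes. In MC38-COSMC KO Tap1 was at 556, 467 and 374 and Tap2 at 412, 327 and 311. Both genes thus lay below all MC38-MOCK#1 samples without passing the test. The differences were -0.78 ± 0.22 for Tap1 (limma, adjusted p = 0.0637) and -0.72 ± 0.22 for Tap2 (adjusted p = 0.0850). In MC38-CMAS KO, at 668, 459 and 417 for Tap1 and 498, 396 and 378 for Tap2, both overlapped with MC38-MOCK#1. So did MC38-DKO, at 762, 612 and 584 for Tap1 and 562, 417 and 388 for Tap2. Of the exon bases of Tap2, 18.5% overlap with other genes (Gm20496 and Gm15821).

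Tapbp (tapasin), which holds empty class I molecules at the transporter, was at 378, 304 and 477 in MC38-FUT9 and at 2400, 2418 and 3958 in MC38-MOCK#2. It fell by 2.90 ± 0.24 (limma, adjusted p = 0.000532), next in size to Nlrc5. In MC38-MOCK#1 it was at 2140, 2474 and 3788, in MC38-DKO at 2897, 2135 and 2312, in MC38-CMAS KO at 1868, 1330 and 1435 and in MC38-COSMC KO at 1609, 1355 and 1109. Both single knockouts lay below all samples of MC38-MOCK#1 and MC38-DKO, and Tapbp was at 1378, 3092 and 1861 in MC38-WT and at 2089, 1158 and 2136 in the line labelled FUT4. Exons of Tapbp overlap with those of Zbtb22 and Gm19412 over 22% of their bases, and Zbtb22 itself differed by 0.10 ± 0.17 between MC38-FUT9 and MC38-MOCK#2 (limma, adjusted p = 0.724). Tapbpl, which encodes the editor TAPBPR, was at 66, 55 and 52 in MC38-FUT9 and at 190, 205 and 157 in MC38-MOCK#2, and fell by 1.66 ± 0.15 (limma, adjusted p = 0.000792). It was at 194, 237 and 268 in MC38-MOCK#1 and at 242, 234 and 212 in MC38-DKO, but at 165, 109 and 104 in MC38-CMAS KO and at 140, 121 and 113 in MC38-COSMC KO. Here too both single knockouts lay below MC38-MOCK#1 and MC38-DKO, and the range was 123 to 192 in MC38-WT and 151 to 202 in the line labelled FUT4.

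Erap1, which trims peptides in the endoplasmic reticulum, was at 400, 369 and 401 in MC38-FUT9, at 509, 455 and 466 in the line labelled FUT4, and at 661, 649 and 772 in MC38-MOCK#2. The 3 lines did not overlap, and it was the only one of the 10 genes that passed in both lines against MC38-MOCK#2, with a fall by 0.83 ± 0.09 in MC38-FUT9 (limma, adjusted p = 0.00125) and by 0.54 ± 0.09 in the line labelled FUT4 (adjusted p = 0.00960). The latter call was lost without sample 3 of the line labelled FUT4 (limma, adjusted p = 0.0586). Erap1 was at 803, 936 and 978 in MC38-MOCK#1, at 1020, 753 and 825 in MC38-DKO, at 570, 569 and 593 in MC38-CMAS KO and at 602, 543 and 512 in MC38-COSMC KO. All samples of the single knockouts were below those of MC38-MOCK#1 and MC38-DKO, while MC38-WT ranged from 559 to 824.

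Counted over the 10 genes, MC38-FUT9 had 9 lower and 0 higher than MC38-MOCK#2, where 24.1% of all genes tested were called and 12% were called lower. All 10 had MC38-FUT9 samples below those of MC38-MOCK#2, as did 18.2% of all genes. The median log2 fold change of the 10 genes was -1.48, against 0.01 over all genes. The line labelled FUT4 had 1 lower (Erap1), where 16.1% of all genes were called and 8.04% were called lower, and 3 without overlap and lower, as were 16.1% of all genes. There, values of the other 9 ran from -1.24 (Nlrc5) to 0.63 (H2-K1) with 5 of the 10 genes (H2-K1 and H2-D1 above 0, Nlrc5, Tapbp and Erap1 below) at an unadjusted p under 0.05, as were 6370 of 21734 genes tested. Between the controls, MC38-MOCK#2 against MC38-MOCK#1, limma called 0 of the 10 (3 at an unadjusted p under 0.05, as were 5711 of 21667 genes tested, lowest adjusted p = 0.0649), where 11.3% of all genes were called. The count was 3 with a mean of at least 10 normalized counts or with all 8 lines in 1 fit. Calls over all genes went from 2454 of 21667 to 2731 of 13447 and to 3889 of 20944. For 3 of them (H2-K1, H2-D1 and Erap1) all MC38-MOCK#2 samples were lower, as for 14.7% of all genes. MC38-WT had 1 gene lower than MC38-MOCK#1, Nlrc5, where 5.51% were called and 2.81% were called lower, and 2 without overlap (12.4% of all genes), and the call of Nlrc5 was lost in 5 of 6 fits that left out 1 sample, all but the one without MC38-WT 2. Calls over all genes went from 1192 to between 31 and 693 in these 6 fits. MC38-WT differs from MC38-MOCK#1 in passage and puromycin as well as in the construct, and MC38-MOCK#2 differs from it in passage and construct, and these cannot be told apart.

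**Figure D2:**
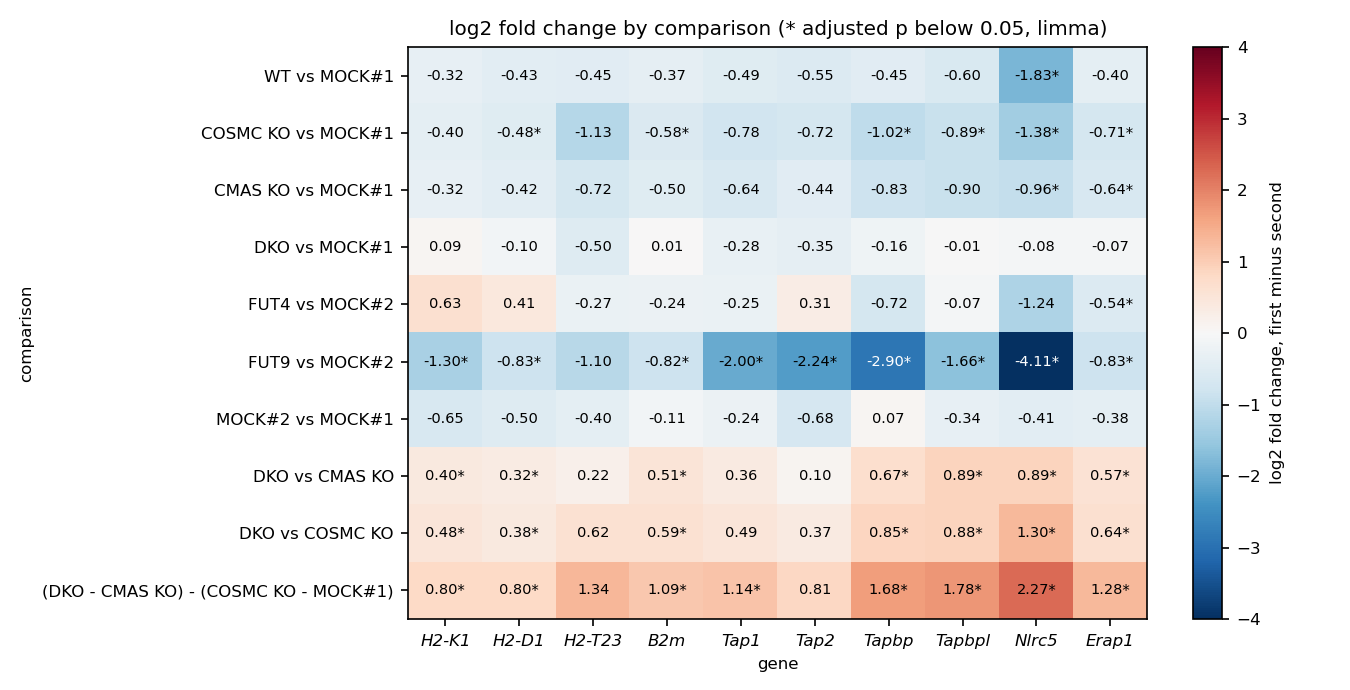
log2 fold change (colour and number) of the 10 genes (columns) in 9 pairs of lines and in the difference between 2 contrasts (rows); asterisks mark an adjusted p below 0.05 in limma, and FUT4 stands for the line labelled FUT4. Values of MC38-FUT9 are below 0 for all 10 genes and pass for 9, and those of MC38-DKO against either single knockout are above 0 for all 10 and pass for 7.

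The knockouts were set against the same MC38-MOCK#1 samples, so their values are given side by side. Unmodified MC38-WT was also below MC38-MOCK#1, with all 10 genes below 0 and a median log2 fold change of -0.45. In the single knockouts all 10 were below 0 too, with medians of -0.75 in MC38-COSMC KO and -0.64 in MC38-CMAS KO. The single knockouts were not tested against MC38-WT. In MC38-COSMC KO 6 of the 10 genes were lower, where 11.6% of all genes tested were called and 5.39% were called lower, and 9 were lower without overlap, as were 14.1% of all genes. Besides Nlrc5, these 6 were H2-D1 (-0.48 ± 0.10, limma, adjusted p = 0.0244), B2m (-0.58 ± 0.12, adjusted p = 0.0218), Tapbp (-1.02 ± 0.22, adjusted p = 0.0275), Tapbpl (-0.89 ± 0.15, adjusted p = 0.0112) and Erap1 (-0.71 ± 0.10, adjusted p = 0.00544). In MC38-CMAS KO 2 were lower, Nlrc5 and Erap1, which fell by 0.64 ± 0.09 (limma, adjusted p = 0.0106), where 5.76% were called and 2.73% were called lower, and 7 were lower without overlap (12.5% of all genes). The count of 2 became 6 with a mean of at least 10 normalized counts and 4 with each sample rescaled to the same total. Calls over all genes went from 1268 of 22024 to 1634 of 13504 and to 1331 of 22024. In MC38-DKO limma called 0 of the 10, with 0 at an unadjusted p under 0.05, where 0.092% were called, and its values ran from -0.50 (H2-T23) to 0.09 (H2-K1). Leaving out 1 sample left 0 to 4 of the 6 calls in MC38-COSMC KO, with none left without MC38-COSMC KO 2, and 0 to 2 of the calls in MC38-CMAS KO, with none left without MC38-MOCK#1 2 or without any of the 3 MC38-CMAS KO samples. Calls over all genes fell too, from 2563 to between 675 and 2137 in MC38-COSMC KO. In MC38-CMAS KO they fell from 1268 to between 122 and 876.

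MC38-DKO was also compared directly with each single knockout. Against MC38-CMAS KO, from which it differs by the label of the COSMC knockout, 7 of the 10 genes were higher, where 6.93% of all genes were called and 3.15% were called higher. These were H2-K1 (0.40 ± 0.08 on the log2 scale), H2-D1 (0.32 ± 0.06), B2m (0.51 ± 0.12), Tapbp (0.67 ± 0.15), Tapbpl (0.89 ± 0.18), Nlrc5 (0.89 ± 0.11) and Erap1 (0.57 ± 0.11), with adjusted p in limma from 0.00375 to 0.0395. Against MC38-COSMC KO the genes called higher were also H2-K1, H2-D1, B2m, Tapbp, Tapbpl, Nlrc5 and Erap1, by 0.38 to 1.3, where 12.9% of all genes were called and 6.15% of all genes were called higher. For each of these genes all MC38-DKO samples lay above all samples of either single knockout, as held for 12.3% of all genes against MC38-CMAS KO and for 13.9% against MC38-COSMC KO. Fewer genes were called once a sample was left out, and the cause was not tested. Without 1 sample, 0 to 2 genes were called against MC38-CMAS KO and 2 to 6 against MC38-COSMC KO, with directions kept, while calls over all genes went from 1515 to between 231 and 761 and from 2838 to between 1050 and 2154. None was left against MC38-CMAS KO without MC38-CMAS KO 2, and 2 were left against MC38-COSMC KO without MC38-COSMC KO 2 or 3. Tapbpl and Nlrc5 passed in every such fit against MC38-COSMC KO.

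The difference between the COSMC contrast with and without the CMAS knockout, (MC38-DKO minus MC38-CMAS KO) minus (MC38-COSMC KO minus MC38-MOCK#1), was tested with an interaction term over the 12 samples. It was above 0 for all 10 genes and passed for 8, where 22.1% of all genes were called and 11.1% were called higher. It was largest for Nlrc5, at 2.27 ± 0.20 (limma, adjusted p = 3.29e-06). Nlrc5 was 1.38 lower in MC38-COSMC KO than in MC38-MOCK#1 and 0.89 higher in MC38-DKO than in MC38-CMAS KO. Each genotype was 1 line, so genotype and the state of a line cannot be told apart. Between MC38-DKO and MC38-MOCK#1 only 0.092% of all genes were called. Tap2 (0.81 ± 0.29, limma, adjusted p = 0.0582) and H2-T23 (1.34 ± 0.70, adjusted p = 0.209) did not pass. C1galt1c1 itself gave 0.73 ± 0.21 in the same test (limma, adjusted p = 0.0201), and its RNA differed by 0.01 ± 0.16 between MC38-DKO and MC38-CMAS KO (adjusted p of 1).

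Other genes of the pathway were read from lists of fixed membership in the comparison of MC38-FUT9 with MC38-MOCK#2. Of all 21480 genes tested there, 24.1% were called, 2570 lower and 2596 higher. Of the other class I genes 9 of 14 tested were lower and 0 higher, among them Mr1 (-2.20 ± 0.41, limma, adjusted p = 0.0101) and Cd1d1 (-1.62 ± 0.32, adjusted p = 0.0123), which present vitamin metabolites and lipids. H2-Q6 and H2-Q7 had the largest values, but their mean was 0.667 and 0.333 normalized counts in MC38-FUT9 and 14.3 and 14 in MC38-MOCK#2, and as near-identical copies they are uncertain. All 5 genes of the immunoproteasome and its activator, which make peptides suited to class I, were lower: Psmb8 (-3.38 ± 0.23, limma, adjusted p = 0.000327), Psmb9 (-3.24 ± 0.47, adjusted p = 0.00363), Psme2 (-1.08 ± 0.18, adjusted p = 0.00666) and Psmb10 and Psme1 by less. Of the constitutive subunits that they replace, 2 of 3 were lower, Psmb6 by 0.43 and Psmb7 by 0.36 on the log2 scale. General chaperones of peptide loading were not lower, with 2 of 6 higher, Ganab (0.31 ± 0.06, limma, adjusted p = 0.0141) and Calr (0.29 ± 0.08, adjusted p = 0.0444). The other peptide-trimming peptidases had 1 higher and 2 lower of 7.

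Of 17 transcription regulators of class I genes 6 were lower and 2 higher in MC38-FUT9. Over all genes, 24.1% were called in this comparison and 12% were called lower. Among those lower were Stat2 (-1.64 ± 0.39, limma, adjusted p = 0.0233) and Irf1 (-1.18 ± 0.13, adjusted p = 0.00137), which carry interferon signals to DNA, and Rfxank (-0.53 ± 0.13, adjusted p = 0.0239), a subunit of the complex through which NLRC5 acts. Of 8 interferon receptors, Janus kinases and their inhibitor tested, 1 was lower, Tyk2 (-1.26 ± 0.15, limma, adjusted p = 0.00203). Other interferon-induced genes were lower in 11 of 14, with a median of -3.86, led by Oas1a (-5.16 ± 0.63, limma, adjusted p = 0.00193), Usp18 (-4.76 ± 0.93, adjusted p = 0.0114) and Rsad2 (-4.66 ± 0.85, adjusted p = 0.00912). Of 22 genes that lie in the MHC region but have no part in antigen presentation, 4 were lower and 1 higher, with a median of 0.03. Their share of calls was near that over all genes.

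**Figure D3:**
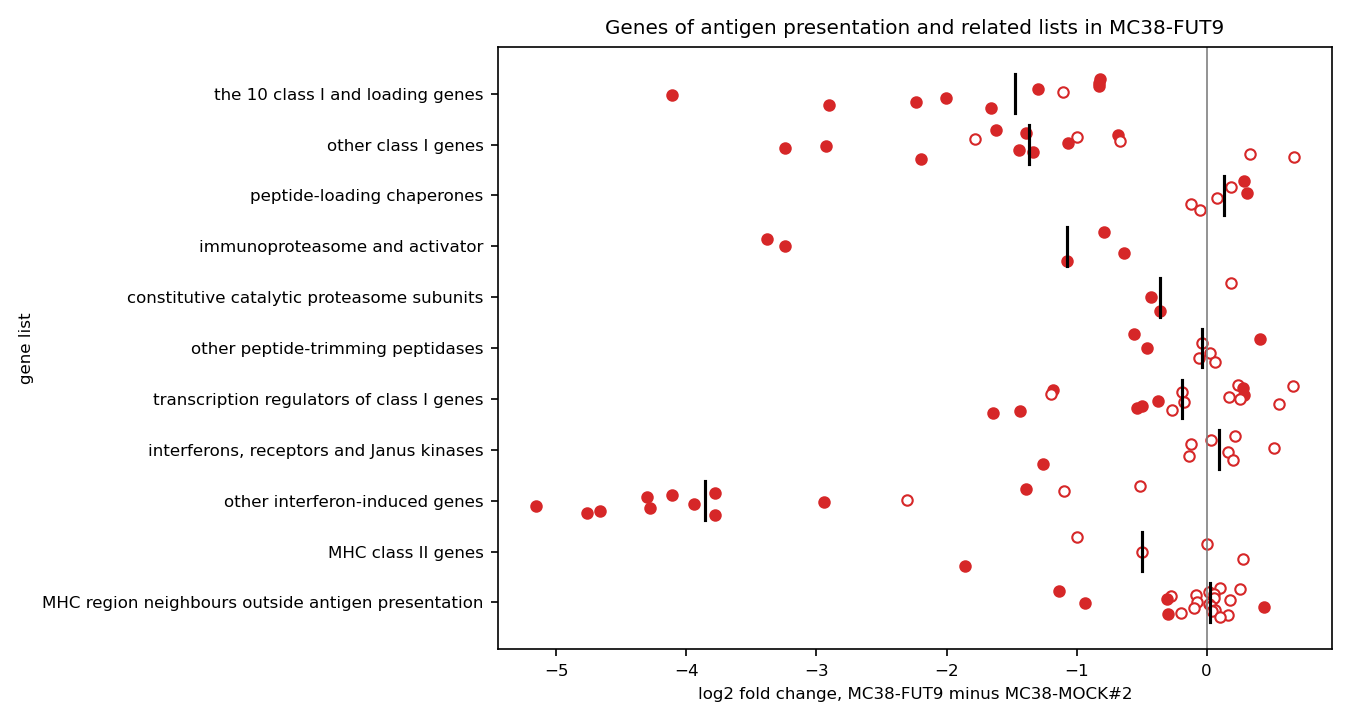
log2 fold change of single genes (points, horizontal axis) in MC38-FUT9 against MC38-MOCK#2 for the 10 genes and 10 further lists, with filled points at an adjusted p below 0.05 in limma and a bar at the median of each list. Interferon-induced genes reach the lowest values, with a median of -3.86, while neighbours in the MHC region have a median of 0.03.

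Within lines, most of the 9 genes other than H2-T23 were highest in the sample in which interferon-induced genes were highest, except in MC38-FUT9. In MC38-WT, sample 2 was highest for all 9 genes and sample 1 lowest, and the mean log2 level of 15 interferon-induced genes was 7.86 in sample 2 and 4.94 in sample 1. In MC38-MOCK#1, sample 3 was highest for 9 of the 9 genes (interferon-induced genes at 7.02, against 5.70 and 5.74), and in MC38-MOCK#2, sample 3 for 8 of the 9 (7.96, against 5.76 and 5.55), while Tapbpl was lowest there. In the line labelled FUT4, sample 2 was lowest for 9 of the 9 (4.90, against 6.74 and 6.76). MC38-FUT9 had interferon-induced genes at 3.47, 2.94 and 3.45, below all other samples, and sample 1 was highest for 2 of the 9 genes and sample 3 for 6. The part of this variation in the differences between lines was not tested.

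**Figure D4:**
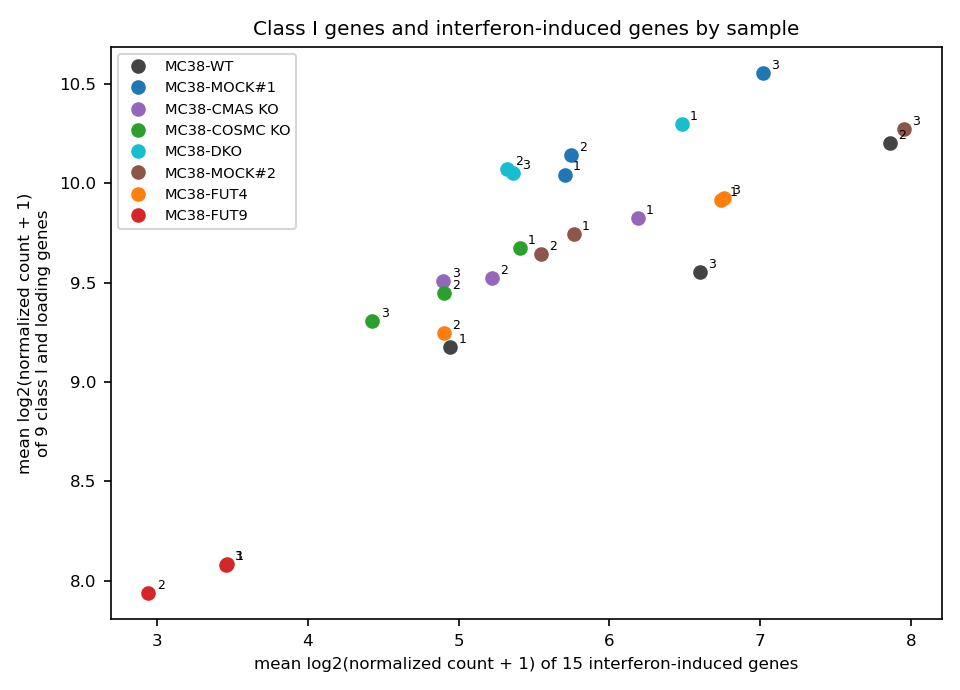
Mean log2(normalized count + 1) of the 9 genes other than H2-T23 (vertical axis) against that of 15 interferon-induced genes (horizontal axis) in 24 samples, coloured by line and marked with the sample number; MC38-FUT4 is the line labelled FUT4. The MC38-FUT9 samples lie lowest on both axes, and MC38-DKO and MC38-MOCK#1 lie above other lines at a like level of interferon-induced genes.

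The 45 pairs of the 10 genes had a median Pearson's r of 0.847 over the 24 samples (median Spearman's rho 0.770), from 0.494 for H2-K1 and H2-T23 to 0.973 for H2-K1 and H2-D1. The samples share their lines, 3 to a line, and MC38-FUT9 lies apart, so r was also taken without its 3 samples (median 0.651), without the 2 samples farthest from the median (0.785) and after removal of the line means (0.769). All 45 values stayed above 0 in each case. With line means removed, Tap1 and Tapbp had the highest value (0.963) and H2-T23 and Erap1 the lowest (0.0975). Tapbpl then had values from 0.328 (with H2-T23) to 0.564 (with Tapbp), and 0.432 with H2-K1. With the mean of the interferon-induced genes, r after removal of line means was 0.971 for Tap1, 0.957 for B2m and 0.86 for Nlrc5, but 0.528 for Tapbpl and 0.395 for H2-T23. With line means kept, r with the interferon-induced genes was between 0.605 (H2-T23) and 0.934 (Tap1) over 24 samples. Without MC38-FUT9 it was between 0.395 (Nlrc5) and 0.882 (Tap1). With the mean of the MHC region neighbours, r over 24 samples was between -0.21 (Erap1) and 0.23 (Nlrc5). After removal of line means it was between -0.48 (Erap1) and 0.04 (H2-T23).

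**Figure D5:**
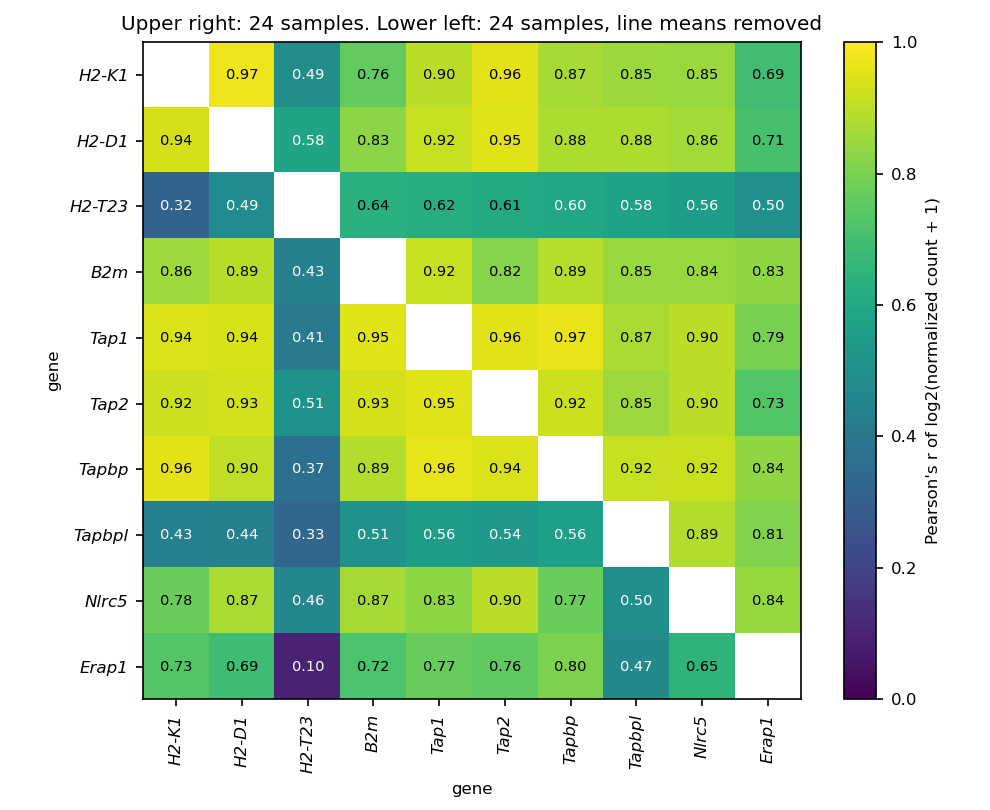
Pearson's r of log2(normalized count + 1) between the 10 genes (both axes), over 24 samples in the upper right and over the same samples with line means removed in the lower left. Values of H2-T23 are low in both, and those of Tapbpl are lower once line means are removed.

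Among 10874 genes with a mean of at least 50 normalized counts, the one most like H2-K1 was H2-D1 (r = 0.973 over 24 samples), and the most like Tap2 was H2-K1 (0.960), followed by Psmb8 (0.960). Tap1 and Tapbp were both most like Ube2l6 (0.975 and 0.986), an enzyme of ISG15 conjugation, and B2m was most like Dtx3l and Parp9 (0.931 and 0.927), which act together as an interferon-induced pair. Nlrc5 was most like Jak3 (0.981), Tapbpl most like Edem2 (0.941) and Erap1 most like Mtrf1 (0.927). With line means removed the value for Jak3 was 0.890 and that for Mtrf1 0.341, so the likeness of Erap1 and Mtrf1 lay mostly between lines.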

How the data were processed

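RNA of the 24 samples was sequenced as 50-base single reads. Per the labels and the methods of the study, the authors trimmed reads with Sickle, aligned them with HISAT2 2.0.4 to GRCm38, counted them per gene with featureCounts (Subread 1.5.0-p3), leaving out reads that overlap several genes, and normalized with edgeR 3.18.1. Whether counting used the strand is not given in the sources used here. What the authors deposited is a score, a scaled count rounded to a whole number, so no count test was used.

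Here limma 3.58.1 (R 4.3.3; lmFit, eBayes with trend) was fitted on a log2 scale after adding 1 to each value, with the samples of the lines compared. Genes with more than 4 zeros among 6 samples were left out (the same share with 12 or 24 samples), and a Benjamini-Hochberg adjusted p below 0.05 over all genes tested was a call. On simulated data for MC38-FUT9 against MC38-MOCK#2, 141 of 200 genes changed 2-fold among 21794 were called, with 5 unchanged genes. Python 3.11.15, numpy 2.4.6, pandas 2.3.3, scipy 1.17.1 and matplotlib 3.10.9 served the other steps.

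Reads per sample were estimated from gaps among the rounded values. The estimator was rewritten after its first form failed a simulation, and simulated factors below the range it searches were then taken out of that test, so it assumes that no library was scaled by less. In the final simulation 8 of 9 factors came within 0.1%, and a factor of 1.05 was off by 4.95%. No test uses these depths.

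The 10 genes, the lists, the motifs and the tests were chosen with earlier results of these data known. From a list, up to 4 called genes of largest log2 fold change were named. A gene that this rule would name is not reported here. The interferon regulatory factor motif was shortened after a longer form had missed the B2m promoter. Likeness of pattern was Pearson's r over the 24 samples. Alternatives were the pseudocount, filter, scaling, trend, a fit of all lines, the replicate block and leaving out each sample. Correlations without MC38-FUT9 were added after the data were seen.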

Additional observations from a re-analysis of the deposited data

Results flagged for a closer look

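The COSMC contrast differed between cells with and without the CMAS knockout for 8 of the 10 genes, by an interaction term over 12 samples (limma, adjusted p from 3.29e-06 to 0.0132). Over all genes tested, 22.1% were called in this test and 11.1% were called higher. The difference of the contrasts on the log2 scale was 2.27 for Nlrc5, 1.78 for Tapbpl, 1.68 for Tapbp, 1.28 for Erap1, 1.14 for Tap1, 1.09 for B2m, 0.80 for H2-D1 and 0.80 for H2-K1. All 8 were lower in MC38-COSMC KO than in MC38-MOCK#1 and higher in MC38-DKO than in MC38-CMAS KO, although H2-K1 and Tap1 did not pass the test in the former and Tap1 not in the latter. These 8 calls held in all 12 fits that left out 1 sample. Each genotype was 1 line, so genotype and the state of a line cannot be told apart. The RNA of C1galt1c1 in MC38-DKO, at 166 to 206, overlapped with that in MC38-CMAS KO, at 152 to 215, and its part in the result was not tested.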

How the results depend on the processing

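No called gene changed direction under any setting run. The counts of the 10 genes called in MC38-FUT9 (9), in MC38-DKO against MC38-MOCK#1 (0), in the interaction (8) and among the 8 lines (9) stayed within 1.5 times under all settings run. Other counts moved. Without a filter, MC38-WT went from 1 to 0, MC38-COSMC KO from 6 to 3, MC38-DKO against MC38-CMAS KO from 7 to 1 and against MC38-COSMC KO from 7 to 4, and without the trend these became 0, 3, 1 and 2. In the same order, calls over all genes were 1192, 2563, 1515 and 2838 in the main fits. They were 400, 1083, 528 and 1368 without a filter, and 717, 1135, 692 and 1238 without the trend. With all 8 lines in 1 fit, MC38-WT had 3, the line labelled FUT4 4, MC38-DKO against MC38-CMAS KO 2 and MC38-MOCK#2 against MC38-MOCK#1 3. Calls over all genes rose in these 4 comparisons, to 2924, 4675, 2360 and 3889 of 20944. With a mean of at least 10, MC38-CMAS KO had 6 in place of 2, the line labelled FUT4 2 in place of 1 and MC38-MOCK#2 3 in place of 0, and with each sample rescaled to the same total MC38-CMAS KO had 4. In the same order, calls over all genes were 1634 of 13504, 3551 of 13445, 2731 of 13447 and 1331 of 22024. Same-numbered samples did not correlate above 0.1 in every pair of any comparison, and although those of most lines compared also share a passage, they were not taken as pairs. With the replicate number as a block, MC38-WT, MC38-COSMC KO and MC38-CMAS KO had 0 (calls over all genes went from 1192 to 0, 2563 to 4 and 1268 to 1), MC38-MOCK#2 against MC38-MOCK#1 3, MC38-FUT9 8 and the interaction 8. Calls over all genes with the block were 2168 of 21667 between the controls, 4963 of 21480 in MC38-FUT9 and 4851 of 21396 in the interaction. Leaving out 1 sample gave 0 to 1 in MC38-WT, 0 to 4 in MC38-COSMC KO, 0 to 2 in MC38-CMAS KO, 0 to 1 in the line labelled FUT4, 8 to 9 in MC38-FUT9, 0 to 2 in MC38-DKO against MC38-CMAS KO and 2 to 6 against MC38-COSMC KO. Calls over all genes fell in every such fit of these comparisons. The cause was not tested. The median r of 0.847 became 0.770 as Spearman's rho, 0.769 without line means, 0.785 without the 2 farthest samples and 0.651 without MC38-FUT9. H2-T23 was at 6 to 35 normalized counts, and whether more depth would change its calls was not tested.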
